A study of Rattus norvegicus with 16 samples.

Results

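MicroRNA levels in the hippocampus of rats that received the compound E33 with a traumatic brain injury (TBI+E33, 2 arrays) were compared with those of sham-injured rats (2 arrays). These 4 arrays, of the 16 in the series, shared 1 slide. The array carries probes for 350 miRNAs, and the comparison covers the 227 whose probe was well above background on both TBI+E33 arrays or on both sham arrays. The probe taken for a miRNA was its brightest over all arrays, and "well above background" is the scanner software's own flag.

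All rats were male Sprague-Dawley rats, and all hippocampi were taken whole at 24 h. The TBI+E33 rats had a severe lateral fluid percussion injury, in which a pulse of fluid strikes the dura over 1 side of the brain, and were treated with E33. The sham rats had sham injury and no compound. The labels give E33 by its code only, and its dose and the time of dosing are not given in the sources used here. The other groups were naive rats with neither injury nor sham injury (3 arrays), injured rats without a compound (TBI, 3), and injured rats given JM6 (3) or PMI (3). No array of uninjured rats given E33 was analysed here, and the TBI arrays without a compound lay on the other slide, so injury and E33 cannot be told apart in the comparison with sham.

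MicroRNAs are short RNAs that pair with messenger RNAs, mainly through the seed near their 5′ end, and lower the output of those messages. Many lie in clusters that are transcribed as 1 precursor, so cluster members can vary together while relatives with the same seed, made from another precursor, do not. In injured brain, miR-21 is known as an injury-induced miRNA, miR-223 and miR-142 as miRNAs of blood-derived myeloid and other leukocytes, and the miR-17-92 cluster as a set made in proliferating cells.

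Of the 227 miRNAs, 203 were matched to a mature sequence of RefSeq (build GRCr8) through the array's probe. The sequences of the miRNAs on which the results turn are shown 5′ to 3′, with the seed (bases 2 to 8) in capitals. The first set was higher on both TBI+E33 arrays than on both sham arrays.
miR-223: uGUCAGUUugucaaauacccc
miR-21: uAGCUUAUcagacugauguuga
miR-142-3p: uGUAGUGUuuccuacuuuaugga
miR-18a: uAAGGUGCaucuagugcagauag
miR-17-5p: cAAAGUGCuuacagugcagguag
miR-20a: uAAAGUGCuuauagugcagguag
miR-19a: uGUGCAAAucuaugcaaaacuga
miR-19b: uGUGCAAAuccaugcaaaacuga
miR-92a: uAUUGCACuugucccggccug
miR-494: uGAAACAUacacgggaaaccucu
miR-543*: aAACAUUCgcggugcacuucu
miR-541: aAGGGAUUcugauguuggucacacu
miR-193: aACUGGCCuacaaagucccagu

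The second set shares seeds with some of these miRNAs or was lower on both TBI+E33 arrays, apart from miR-34a. MiR-34a was higher on both and is shown for its seed. The seed of miR-17-5p and miR-20a is also that of miR-106b and miR-93, and the seed of miR-92a is that of miR-25. The seed of miR-34b and miR-34c is also that of miR-34a.
miR-106b: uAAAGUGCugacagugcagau
miR-93: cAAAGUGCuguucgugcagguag
miR-25: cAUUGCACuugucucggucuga
miR-34a: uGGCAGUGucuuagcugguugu
miR-34b: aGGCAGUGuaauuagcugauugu
miR-34c: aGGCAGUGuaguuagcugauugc
miR-204: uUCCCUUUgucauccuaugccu
miR-338*: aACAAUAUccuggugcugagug

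The array names arms by an older convention: miR-543* is the 3p arm, miR-338* the 5p arm and miR-193 the 3p arm of miR-193a in RefSeq. The 6 tested members of the miR-17-92 cluster lie at chr15:98587861-98588622, and miR-17-5p, miR-19b and miR-92a have a further copy on chromosome X, whose mature sequence the probes cannot separate. MiR-106b, miR-93 and miR-25 lie together at chr12:22156652-22157123, and miR-34b and miR-34c at chr8:60306133-60306679 (all GRCr8).

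Signals are given as scaled signal on the log2 scale, a probe's background-subtracted intensity relative to the 75th percentile of its own array, taken over the 285 probes that passed the background flag on each of the 16 arrays, so that 0 is that percentile. Values were held at a floor of -6.75. Differences are TBI+E33 minus sham. The sham arrays had 440 and 364 probes well above background of 938, and the TBI+E33 arrays 426 and 438. Of the 227 miRNAs, 195 passed the background criterion through both groups and 32 through the TBI+E33 arrays alone. The 75th percentiles were 2723 and 4026 for sham and 2232 and 2438 for TBI+E33. All sham arrays lay in 1 row of the slide and all TBI+E33 arrays in the other, so the row and the group cannot be told apart within these 4 arrays.

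The largest higher means were those of miR-223 and miR-142-3p, which mark leukocytes, of miR-21 and of miR-18a from the miR-17-92 cluster, while the largest lower means were those of the choroid plexus and ciliated cell miRNAs miR-34b, miR-34c and miR-204. In a limma fit with group and slide terms on the 16 arrays, none of the 227 passed an adjusted p (Benjamini-Hochberg) under 0.05. At an unadjusted p under 0.05 there were 26 (11.5% of those tested), 18 higher (7.93%) and 8 lower (3.52%). Fitted on the 8 arrays of the slide alone, limma called 12 miRNAs (5.29%) at the same adjusted threshold, 11 higher (4.85%) and miR-34b lower (0.441%). Fitted on the 4 arrays alone it called 13, all higher (5.73%), of which 8 were among the 12. MiR-18a, in both sets, and miR-188 and miR-466b, among the 13, met the background criterion through the TBI+E33 arrays alone. That criterion favours a higher mean for them. Of the 195 miRNAs well above background on all 4 arrays, the slide's fit called 10 higher and 1 lower. The shared 8 were miR-18a, miR-19a, miR-21, miR-142-3p, miR-193, miR-223, miR-494 and miR-543*. The median difference of all 227 was 0.05 in the fit on all arrays. With 2 arrays a side an exact permutation test of a single miRNA cannot go below p = 0.333 (two-sided), so none was used.

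Both TBI+E33 arrays were above both sham arrays for 76 miRNAs (33.5%) and below both for 59 (26%). The mean was higher in TBI+E33 for 133 miRNAs (58.6%) and lower for 93 (41%), and it differed by more than 1 either way for 8 (3.52%). The background criterion itself fed the higher counts, since 32 miRNAs entered through the TBI+E33 arrays alone and 0 through the sham arrays alone. Over the 195 that were well above background on all 4 arrays, both TBI+E33 arrays were above both sham arrays for 60 (30.8%) and below for 57 (29.2%), the mean was higher for 108 and lower for 87, and 13 were higher and 8 lower at an unadjusted p under 0.05. The split of the means of all 227 moved with the scaling: 100 were higher with the percentile taken over all probes, 151 with normexp background correction, and 17 with no scaling, which set the median difference at -0.44. Small differences are therefore read here against the median of all miRNAs. The methods' t-test, at a fold over 1.2 and an unadjusted p under 0.05, gave 24 higher (10.6%) and 6 lower (2.64%).

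**Figure D1:**
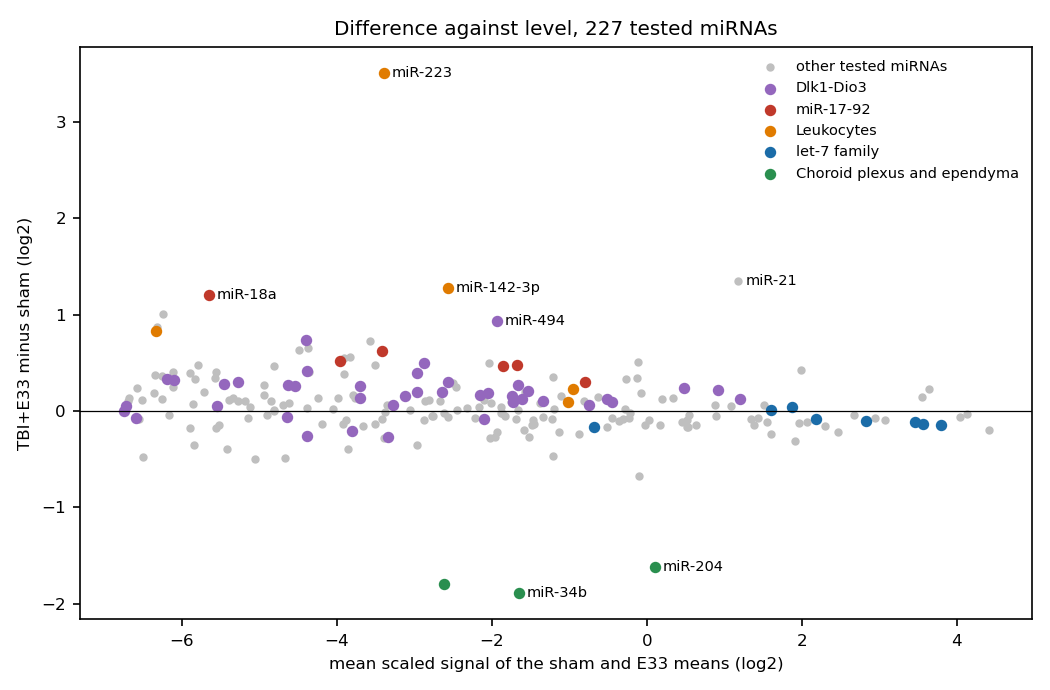
Difference between TBI+E33 and sham (log2, y axis) against the mean scaled signal of the 2 group means (log2, x axis) for the 227 tested miRNAs, each point 1 miRNA, with members of 5 lists in colour. MiR-223 stood at 3.51 and miR-34b at -1.89, and most miRNAs lay close to 0 at every level of signal.

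MiR-223, a miRNA of granulocytes and other myeloid cells, showed the largest difference of all tested miRNAs. Its scaled signal was -5.37 and -4.92 on the sham arrays and -1.96 and -1.32 on the TBI+E33 arrays. The groups were well apart, with both TBI+E33 arrays far above both sham arrays. The difference was 3.51 ± 0.97 (SE), an 11.4-fold higher mean, with limma's adjusted p = 0.141 on all 16 arrays and 0.00364 on the 8 arrays of the slide. The 95% interval of the fit on all arrays ran from 1.38 to 5.63. On the same slide the JM6 arrays read -1.34, -1.10 and -2.03, and the first of these lay in the row of the sham arrays.

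MiR-142-3p, made in cells of the blood lineage, read -3.34 and -3.06 on the sham arrays and -2.03 and -1.82 on the TBI+E33 arrays. The 4 values fell in 2 separate pairs. The difference was 1.28 ± 0.45 (SE), with limma's adjusted p = 0.229 on all arrays and 0.0325 on the slide. MiR-142-5p, the other arm of the same precursor, was at the floor on both sham arrays and at -6.11 and -5.73 on the TBI+E33 arrays, so its signal was at least 1.49-fold higher, a bound set by the dimmest signals the sham arrays could measure. Its adjusted p was 0.416.

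The list of leukocyte miRNAs held 5 members, and all 5 had a higher mean in TBI+E33, though that of miR-142-5p was fixed by the background criterion, which it met through the TBI+E33 arrays alone. The median was 0.83, or 0.58 with miR-142-5p at its bound, against 0.05 over all tested, and it was 0.27 with normexp and 0.46 with the row of the slide as a term, which other arrays of the series allow. Of the 4 members well above background on all 4 arrays, 4 means were higher. MiR-150, a lymphocyte miRNA, differed by 0.23 (SE 0.13) and miR-342-3p by 0.09 (SE 0.10), with adjusted p of 0.466 and 0.709 in limma. The authors' table and the percentile over all probes each left 4 of the 5 means higher, and no scaling left 3. The list's summed scaled signal was 0.04 and 0.25 on the sham arrays against 0.73 and 0.77 on the TBI+E33 arrays. In RNA of a whole tissue, more cells of a type and more RNA per cell cannot be told apart. For the red cell miRNAs the spread between arrays was too wide to show whether they moved with this list. MiR-451 read -1.30 and -2.45 in sham against -2.30 and -1.48 in TBI+E33, and miR-144 read -5.15 and -6.34 against -5.76 and -5.04. Both overlapped between the groups, with differences of -0.02 (SE 0.70) and 0.34 (SE 0.82).

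MiR-21, which rises in many tissues after injury, was 0.44 and 0.55 on the sham arrays and 1.79 and 1.92 on the TBI+E33 arrays. The arrays of each group lay close together and the groups were far apart. The difference was 1.35 ± 0.36 (SE), a 2.55-fold higher mean, with limma's adjusted p = 0.127 on all arrays and 0.000604 on the slide. The JM6 arrays of that slide read 1.95, 1.90 and 1.87. With the row of the slide as a further term the difference of miR-21 was 0.74 and that of miR-223 was 2.16.

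The other 2 tested members of the inflammation list were miR-146a and miR-146b, which share a seed and are known to restrain signalling from innate immune receptors. MiR-146a read -4.00 and -3.51 in sham and -3.19 and -3.35 in TBI+E33, higher on both TBI+E33 arrays, with a difference of 0.48 (SE 0.31), or 0.23 without the first sham array. MiR-146b overlapped between the groups and differed by -0.05 (SE 0.15). Limma gave adjusted p of 0.530 and 0.877.

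**Figure D2:**
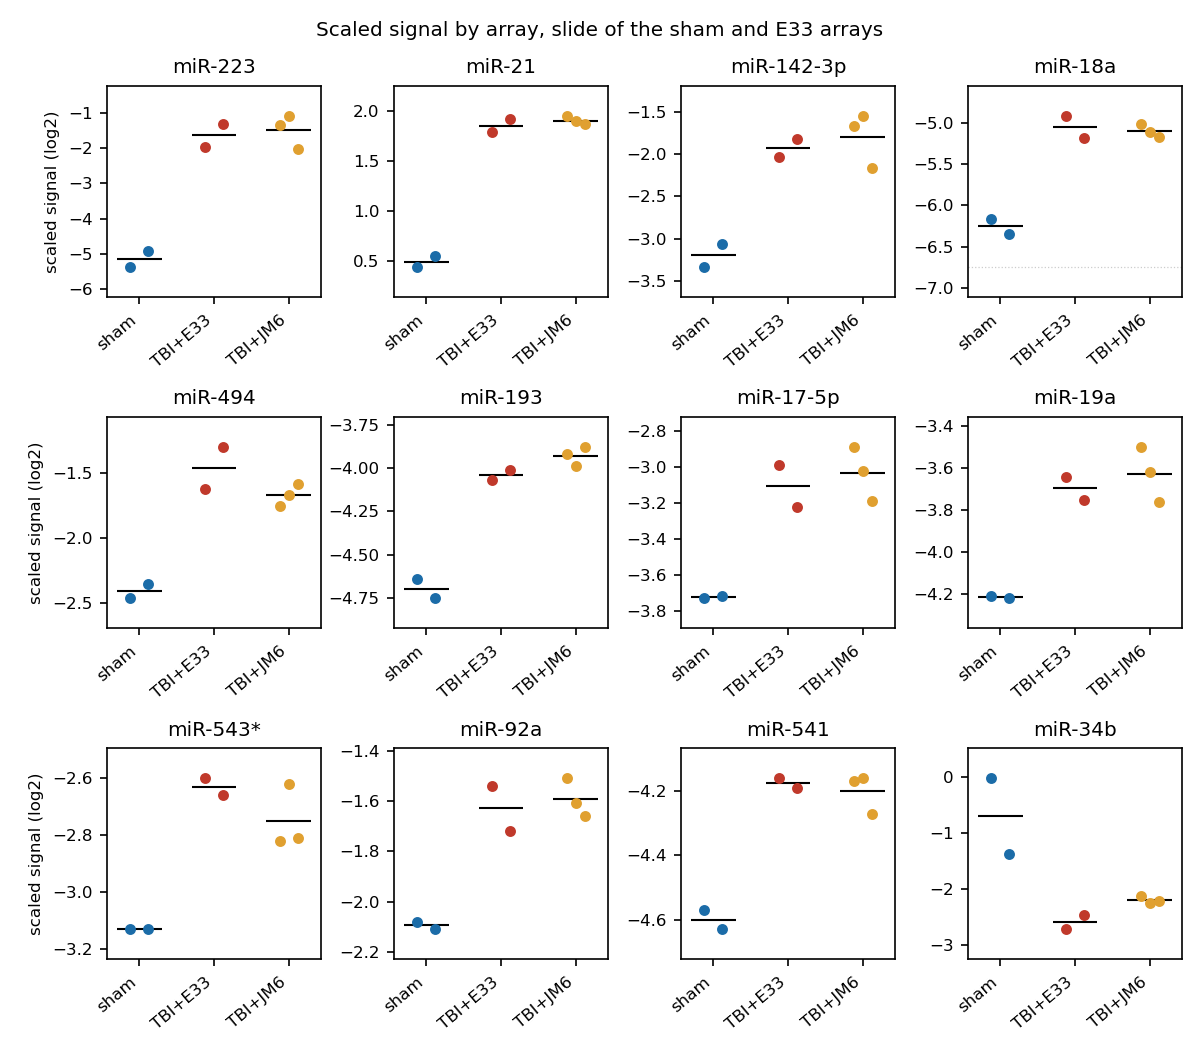
Scaled signal (log2, y axis) of the 12 miRNAs called in the fit on the slide's 8 arrays, for the sham, TBI+E33 and TBI+JM6 arrays (x axis), each point 1 array and each line a group mean, a dotted line the floor, with y axes that differ between panels. For 11 miRNAs both TBI+E33 arrays lie above both sham arrays, and for miR-34b both lie below.

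All 6 tested members of the miR-17-92 cluster were higher on both TBI+E33 arrays than on both sham arrays, against 33.5% over all tested, and miR-18a met the background criterion through the TBI+E33 arrays alone. MiR-18a read -6.16 and -6.35 in sham and -4.92 and -5.19 in TBI+E33, a difference of 1.2 ± 0.26 (SE), with an adjusted p of 0.0674 on all arrays and 0.00364 on the slide (limma). The probe used was well above background on 1 of the 2 sham arrays. Another probe of miR-18a, well above background on 2 of the 4 arrays, differed by 0.55. MiR-17-5p read -3.73 and -3.72 against -2.99 and -3.22, a difference of 0.62 ± 0.20 (SE), with an adjusted p of 0.213 and 0.0475 in the same fits.

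The remaining members stood closer to the median. MiR-92a differed by 0.47, miR-19a by 0.52, miR-20a by 0.48 and miR-19b by 0.30 (SE 0.15 to 0.26). Of these, miR-92a and miR-19a passed the adjusted threshold on the slide (limma's adjusted p = 0.0475 each). The 5 members well above background on all 4 arrays, without miR-18a, had a median of 0.48. In all, 4 of the 6, miR-18a among them, were at an unadjusted p under 0.05 in the fit on all arrays, where the share over all tested was 7.93%. The median of the 6 was 0.50, or 0.32 with the row of the slide as a term. With no scaling 3 of the 6 means stayed higher and the median was at 0, and under every scaling tried all 6 stood above the median of all miRNAs.

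Relatives with the same seed from another precursor differed by less than the cluster members that share it. MiR-106b and miR-93 differed by -0.08 (SE 0.12) and 0.10 (SE 0.13), against 0.62 and 0.48 for miR-17-5p and miR-20a. MiR-25 differed by -0.07 (SE 0.12) and miR-92b, with the same seed, by 0.11, against 0.47 for miR-92a. MiR-93 and miR-92b were higher on both TBI+E33 arrays than on both sham arrays. MiR-106b read -1.69 and -1.61 in sham against -1.69 and -1.77 in TBI+E33, so its groups met to 2 decimals. Whether the cluster differed from these relatives was not tested. The miR-15/16 family, which restrains the cell cycle, had 3 of 5 means higher (0 of 5 with the percentile over all probes) and a median of 0.01, with miR-16 at 0.06, miR-15b at 0.09 and miR-195 at -0.09.

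MiR-193 and miR-365 come from neighbouring genes. MiR-193 read -4.64 and -4.75 in sham and -4.07 and -4.01 in TBI+E33, and its groups did not overlap. The difference was 0.65 ± 0.33 (SE), with limma's adjusted p = 0.440 on all arrays and 0.0093 on the slide. MiR-365 overlapped and differed by 0.10 (SE 0.16).

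**Figure D3:**
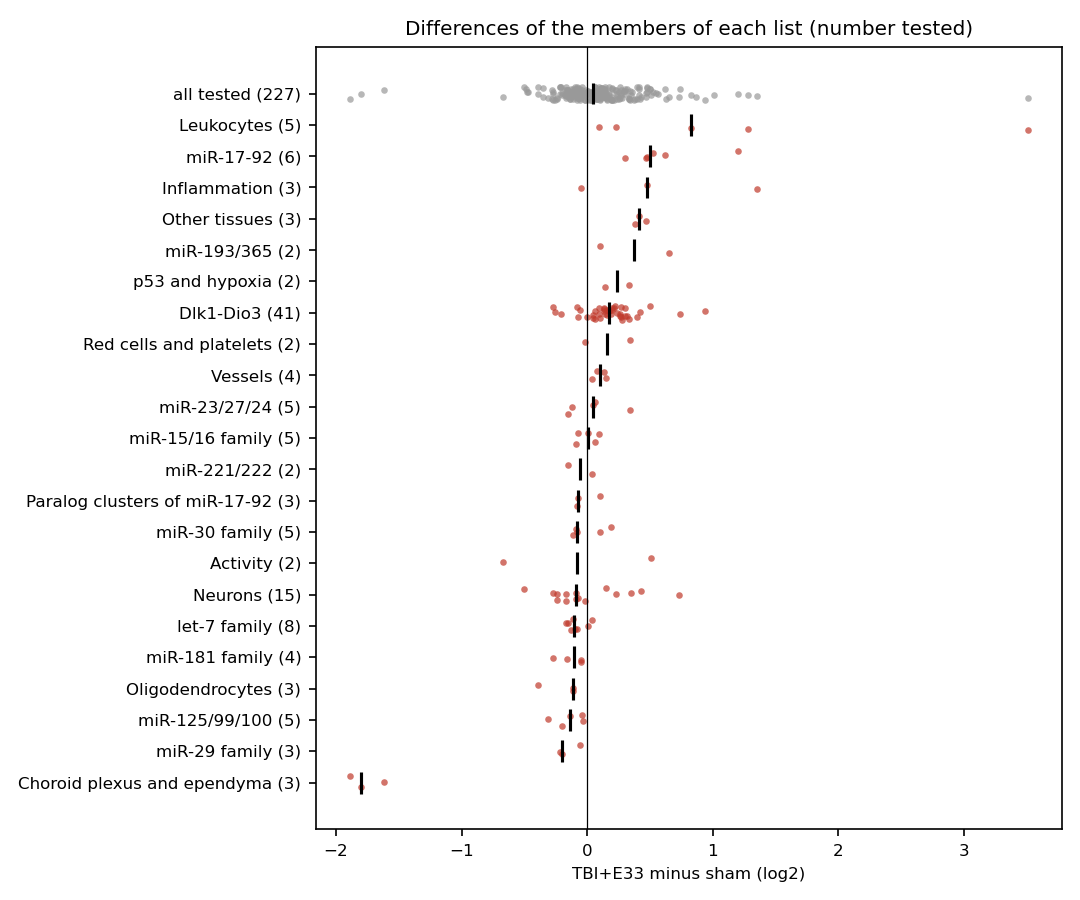
Difference between TBI+E33 and sham (log2, x axis) for the tested members of each list (y axis, number tested in brackets), each point 1 miRNA and each bar the median. The leukocyte and miR-17-92 lists lie to the right of the 227 tested miRNAs together (median 0.05), and the choroid plexus and ependyma list lies to the left (median -1.80).

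The Dlk1-Dio3 region is an imprinted locus whose maternal copy makes a large set of miRNAs, many of them high in neurons. Of its 49 miRNAs on the array 41 were tested. Of these, 34 had a higher mean in TBI+E33 and 6 a lower one, against 58.6% and 41% over all tested. Both TBI+E33 arrays lay above both sham arrays for 20 and below for 3, where 33.5% and 26% of all tested did. Of the 41, 36 were well above background on all 4 arrays, and of these 31 had a higher mean and 18 were higher on both TBI+E33 arrays. Over all 195 such miRNAs, 108 had a higher mean and 30.8% were higher on both TBI+E33 arrays. The median was 0.17, against 0.05 over all tested, and 4 were higher and 1 lower at an unadjusted p under 0.05, close to the shares over all tested (7.93% and 3.52%). With the slide's row as a term 24 of 41 means were higher with a median of 0.03, and with no scaling 2 were higher with a median of -0.30, which was 0.14 above that of all miRNAs.

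MiR-494 led the region with -2.46 and -2.35 in sham and -1.62 and -1.30 in TBI+E33. Its groups were apart by more than the spread within either. The difference was 0.94 ± 0.35 (SE), with limma's adjusted p = 0.249 on all arrays and 0.0093 on the slide. MiR-543* read -3.13 on both sham arrays and -2.60 and -2.66 in TBI+E33, a small but tight difference of 0.50 ± 0.10 (SE), with an adjusted p of 0.0674 on all arrays and 0.046 on the slide (limma). With no scaling between arrays this difference was -0.01.

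MiR-541 differed by 0.42 ± 0.13 (SE), with an adjusted p of 0.213 on all arrays and 0.046 on the slide in limma. MiR-431 differed by 0.74 ± 0.23 (SE) and passed neither (0.213 and 0.184). Other named members stood closer to 0: miR-127 at 0.22, miR-434 at 0.13, miR-379 at 0.16 and miR-758 at 0.26. MiR-299, of the same region, was lower on both TBI+E33 arrays, at -4.44 and -4.60 against -4.27 and -4.24, a difference of -0.26 ± 0.11 (SE) with an adjusted p of 0.351.

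In the same fit, TBI against naive, a comparison on the other slide that shares no array with TBI+E33 against sham, gave lower means for 38 of the 41 Dlk1-Dio3 miRNAs (59.5% over all tested), with a median of -0.24. For 31 of the 41 the mean was lower in TBI than in naive and higher in TBI+E33 than in sham, against 86 of all 227. TBI+JM6 against the same sham arrays gave 34 of the 41 means higher, against 125 of all 227, with a median of 0.13. Higher means than in sham were thus not limited to TBI+E33. The difference between the comparisons, (TBI+E33 minus sham) minus (TBI minus naive), was above 0 for 36 of the 41 (59% over all tested), with a median of 0.39. At an unadjusted p under 0.05 it was higher for 18 of the 41, where the share over all tested was 13.7%. Over all 227, in either direction, the count under this p was 37, and it was 8 with normexp and 9 with no scaling. The region's own counts under these settings are not given here.

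One miRNA passed the adjusted threshold in that test, miR-543*, with 0.73 ± 0.13 (SE) and limma's adjusted p = 0.0352 (0.441% of those tested). Its mean was -2.63 in naive, -2.86 in TBI, -3.13 in sham and -2.63 in TBI+E33, so the sham arrays were the lowest of these groups. The difference ranged from 0.32 to 0.78 over 20 alternatives, all with the same sign, and its adjusted p from 0.017 to 0.835, with 6 of the 20 past the threshold. Leaving out any sham or TBI+E33 array took it past 0.05 (0.0729 to 0.258). The control group, the slide and the compound differ together between these comparisons and cannot be told apart.

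**Figure D4:**
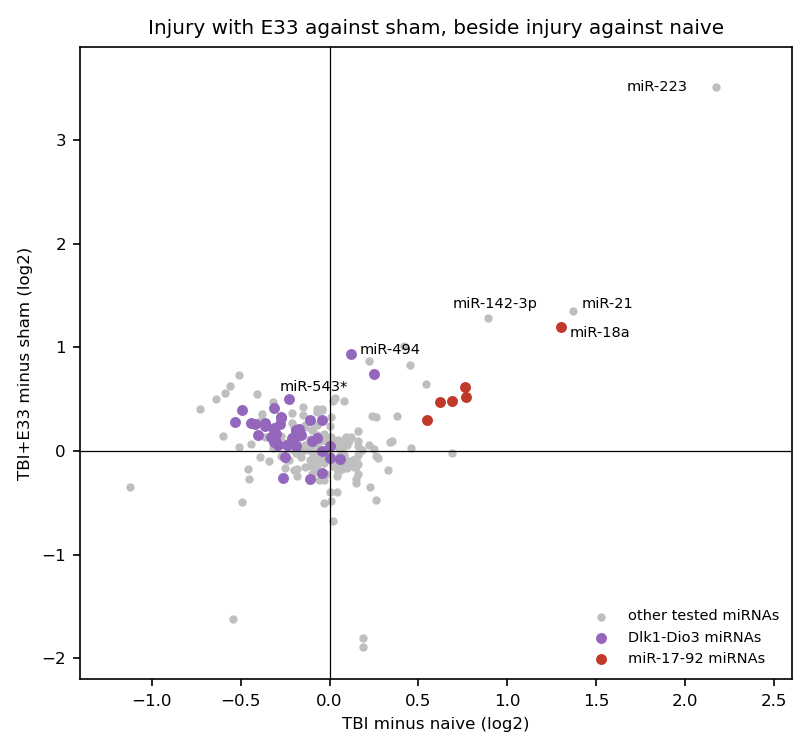
Difference between TBI+E33 and sham (log2, y axis) against the difference between TBI and naive (log2, x axis) for the 227 tested miRNAs, each point 1 miRNA, from 1 fit and with no array in both comparisons. MiR-17-92 members lie above 0 on both axes, while 31 of 41 Dlk1-Dio3 members lie left of 0 and above 0.

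The miR-17-92 members, miR-21, miR-223 and miR-142-3p had the same sign in both comparisons. MiR-18a differed by 1.30 in TBI against naive, miR-21 by 1.37, miR-17-5p by 0.76 and miR-92a by 0.62, and these were the 4 miRNAs called there in the same fit (adjusted p = 0.0123 for miR-18a and 0.0379 for the others, limma; 1.76% of those tested). MiR-223 differed by 2.17 there (adjusted p = 0.165). The difference between the comparisons was -0.10 for miR-18a, -0.02 for miR-21 and 1.34 for miR-223, with adjusted p of 0.898, 0.987 and 0.610, which does not show that the comparisons were alike. The medians of the miR-17-92 list were 0.50 against sham and 0.73 for TBI against naive.

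MiRNAs of the choroid plexus, which secretes cerebrospinal fluid, and of the ciliated ependyma that lines the ventricles had lower means in TBI+E33 than in sham. So they did in TBI+JM6, whose median for the 3 tested was -1.49 against the same sham arrays, beside -1.80 for TBI+E33. TBI against naive, which shares no array with these, gave a median of 0.19, with 2 of the 3 means higher and 1 lower. The median difference between the comparisons was -1.99, with 0 of the 3 at an unadjusted p under 0.05 in limma. MiR-34b read -0.03 and -1.38 in sham and -2.72 and -2.47 in TBI+E33. Both TBI+E33 arrays lay below both sham arrays, and the first sham array lay far above the second. The difference was -1.89 ± 0.75 (SE), with limma's adjusted p = 0.321 on all arrays and 0.0475 on the slide. MiR-34c, from the same precursor, read -1.05 and -2.39 in sham and -3.66 and -3.39 in TBI+E33, a difference of -1.80 ± 0.75 (SE) with adjusted p of 0.351 and 0.0516.

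MiR-204, which is abundant in choroid plexus, was 2.17 on the first sham array, -0.33 on the second, and -0.71 and -0.69 on the TBI+E33 arrays. The difference of -1.62 ± 0.92 (SE) rested on the first sham array: without it, it was -0.37, and without the second it was -2.87. MiR-34b and miR-34c stood at -1.21 and -1.13 without the first sham array. MiR-211, a relative of miR-204, read -5.03 and -6.49 in sham and was at the floor on both TBI+E33 arrays, and miR-449a was at the floor on all 4. MiR-34a, with the seed of miR-34b and miR-34c but from another chromosome, differed the other way, by 0.33 (SE 0.35), or 0.16 without the first sham array.

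The list's summed scaled signal was 2.59 and 0.47 on the sham arrays and -0.22 and -0.13 on the TBI+E33 arrays. High values of miR-204 were also found on a naive array (1.06) and on a PMI array (2.56). The part that choroid plexus or ependymal tissue in the dissected piece played in these differences was not tested.

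**Figure D5:**
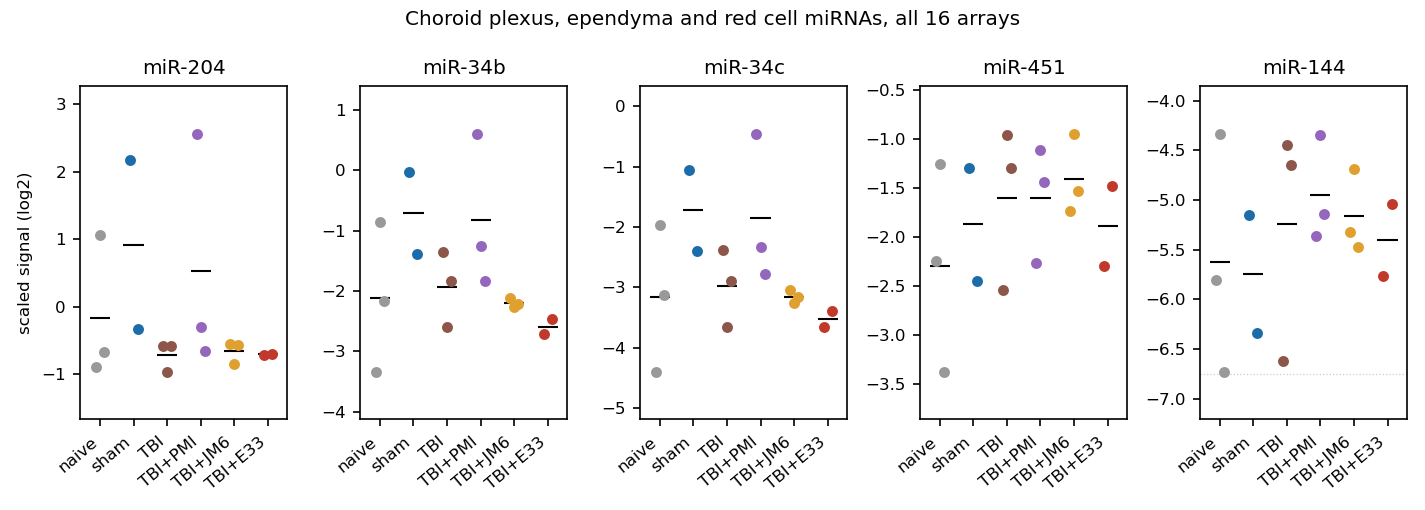
Scaled signal (log2, y axis) of miR-204, miR-34b, miR-34c, miR-451 and miR-144 on all 16 arrays by group (x axis), each point 1 array and each line a group mean, a dotted line the floor, with y axes that differ between panels. For miR-204, miR-34b and miR-34c the first sham array lies far above the second, and the TBI+E33 arrays lie together below both; miR-451 and miR-144 overlap between sham and TBI+E33.

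Neuron-enriched miRNAs did not move as 1 group. Of 15 tested, 5 had a higher and 10 a lower mean (1 higher with no scaling), against 58.6% and 41% over all tested. The median was -0.09, against 0.05 over all tested. Both TBI+E33 arrays lay above both sham arrays for 5 and below for 7, where 33.5% and 26% of all tested did. MiR-124, the leading miRNA of neurons, read 3.39 and 3.67 in sham and 3.74 and 3.78 in TBI+E33, a difference of 0.23 (SE 0.13), or 0.09 without the first sham array, and miR-128 differed by 0.15 (SE 0.15). MiR-383 differed by 0.73 ± 0.24 (SE), from -3.97 and -3.90 to -3.26 and -3.16, with an adjusted p of 0.213 in the fit on all arrays and 0.0275 on the 4 arrays alone (limma). The fit on the slide's 8 arrays did not call it.

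MiR-132 and miR-212 are made from 1 precursor that neuronal activity induces through CREB, and they share a seed. MiR-132 read -0.49 and -0.24 in sham and 0.21 and 0.08 in TBI+E33, higher on both, a difference of 0.51 ± 0.18 (SE). MiR-212 read 0.26 and 0.20 in sham and -0.17 and -0.71 in TBI+E33, lower on both, a difference of -0.67 ± 0.30 (SE) that was -0.40 without the second TBI+E33 array and -0.94 without the first. The adjusted p in limma was 0.229 and 0.406, so neither passed, and the opposite signs of the pair were not tested.

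Oligodendrocyte miRNAs, which are induced as these cells mature, were lower on both TBI+E33 arrays for all 3 tested, against 26% of all tested. MiR-338* read -5.18 and -5.26 in sham and -5.55 and -5.67 in TBI+E33, a difference of -0.39 ± 0.09 (SE) with an adjusted p of 0.0909 in limma. It was at the floor on all naive and TBI arrays, which add no spread to that SE. Another probe of miR-338*, well above background on 3 of the 4 arrays, differed by 0.10. Over 21 alternatives the difference of the probe used ran from -0.9 to -0.01, with 3 past the threshold. MiR-338 and miR-219-5p differed by -0.11 each (SE 0.20 and 0.18), and both had the opposite sign with the slide's row as a term (0.36 and 0.19).

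The 4 vessel miRNAs, of endothelium and smooth muscle, had higher means by 0.04 to 0.15 (miR-126 0.13, miR-143 0.15), with groups that overlapped for all 4 and a median that was -0.36 with no scaling and 0 with quantile normalization. The let-7 family, whose members share a seed and are high in differentiated cells, had 6 of 8 means lower with a median of -0.10, and let-7c and let-7a differed by -0.15 and -0.13. With the slide's row as a term that median was at 0.

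Further families of abundant miRNAs lay below the median of all miRNAs by small amounts. The miR-29 family, which targets matrix genes, had 3 of 3 means lower (miR-29b -0.20, miR-29a -0.06), and both named members were at 0.00 with quantile normalization. The miR-125, miR-99 and miR-100 miRNAs had 5 of 5 lower (miR-125b-5p -0.03, miR-99a -0.31), of which 3 were higher with the slide's row as a term. The miR-181 family had 4 of 4 lower (miR-181a -0.05, miR-181b -0.27, miR-181c -0.05), and 4 of 4 higher with the slide's row as a term. MiR-99a*, the other arm of the miR-99a precursor, read -3.63 and -3.69 in sham and -3.97 and -4.13 in TBI+E33, a difference of -0.39 ± 0.14 (SE) with limma's adjusted p = 0.229.

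The miR-30 family had 3 of 5 means lower (miR-30c -0.08, miR-30e -0.09), or 1 of 5 with the slide's row as a term, and the miR-23, miR-27 and miR-24 miRNAs 2 of 5 (miR-23b -0.12, miR-24 0.05). The pair miR-221 and miR-222, from 1 precursor, differed by -0.15 and 0.04. The hypoxia-induced miR-210 differed by 0.14. None of the members of these lists passed an unadjusted p of 0.05.

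As a check of the tissue label, all 15 neuron miRNAs were measured, while of 14 miRNAs of muscle, liver, gut and epithelium 11 did not meet the background criterion in either group, among them the muscle miRNA miR-1 and the liver miRNA miR-122. The 3 tested were miR-133b (0.41, or 0.22 without the first sham array), miR-192 (0.38) and miR-194 (0.47). Each was higher on both TBI+E33 arrays, against 33.5% of all tested, and miR-192 and miR-194 lie in 1 cluster. With no scaling all 3 differences were below 0 (-0.09, -0.12 and -0.04). MiR-466b and miR-188 were dim. MiR-466b was at the floor on both sham arrays and at -5.87 and -5.89 in TBI+E33. MiR-188 was not well above background on either sham array and read -5.57 and -5.90 in TBI+E33, at least 1.70-fold higher (adjusted p 0.229 in limma). MiR-335 and miR-342-5p differed by 0.50 and 0.48, past the threshold on the 4 arrays alone (adjusted p = 0.0384 each, limma) and in neither larger fit.

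Injured rats given JM6 were the only other injured group wholly on the slide. TBI+E33 and TBI+JM6 were compared in the same fit for the 227 miRNAs, and none passed the adjusted threshold in limma, with 4 at an unadjusted p under 0.05 (1.76%), 3 higher (1.32%) and 1 lower (0.441%) in TBI+E33. MiR-192 differed by 0.66 ± 0.24 (SE), from -4.65, -3.72 and -4.76 in TBI+JM6 to -3.67 and -3.77 in TBI+E33, and miR-194, from the same cluster, by 0.61 ± 0.24 (SE). The second JM6 array read like the TBI+E33 arrays for both, and without it both passed (differences of 0.99 and 0.92). MiR-330* differed by 0.21 and miR-338* by -0.19 (SE 0.08 each).

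For the miRNAs that led the comparison with sham, no difference between the 2 treated groups passed the test, and the intervals were wide for some. TBI+E33 minus TBI+JM6 was -0.15 for miR-223 (95% interval -2.08 to 1.79), -0.06 for miR-21 (-0.77 to 0.66) and 0.04 for miR-18a (-0.47 to 0.56). It was -0.13 for miR-142-3p (-1.03 to 0.78), 0.21 for miR-494 (-0.49 to 0.90) and 0.12 for miR-543* (-0.08 to 0.33). Against the same sham arrays, TBI+JM6 differed by 3.65 for miR-223, 1.41 for miR-21, 1.16 for miR-18a, 1.40 for miR-142-3p, 0.74 for miR-494 and 0.38 for miR-543*. These values share the sham arrays with those of TBI+E33.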

How the data were processed

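Total RNA was end-labelled and hybridised to 1-colour Agilent rat miRNA arrays. The deposited scanner files hold spot intensities that the authors' laboratory read with Agilent Feature Extraction 9.5.3.1 (array design on rn4), background-subtracted and spatially detrended but not scaled between arrays. The deposited files also flag each spot as well above background or outlier with 0 or 1, a score that was used as given. The authors' processed table holds intensities of 741 probes normalized in GeneSpring GX11. Its values are linear with a minimum of 0.01, its medians were 0.11 and 0.07 for sham and 0.09 and 0.09 for TBI+E33, and how it was scaled and centred is not given in the sources used here; it served as an alternative only.

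Here outlier spots were left out, spots of a probe averaged, arrays scaled, floored and log2 transformed as given above. Scaling moves all miRNAs of an array together, and the floor shortens differences of dim miRNAs. In R 4.3.3, limma 3.58.1 (lmFit, then eBayes, with group and slide as terms) was fitted over the 227 miRNAs, and p-values were adjusted over all of them. It was tested on simulated data. Other probes of the same miRNA, where well above background on all 4 arrays (169 probes), had the sign of the probe used in 151. The labels number the arrays but tie no numbers across groups, so the arrays were not taken as pairs. Nothing but the design text says that the arrays of a group are separate animals, and otherwise p-values measure only the spread between arrays. That text states 3 animals in each group, and 2 arrays each were analysed here for sham and TBI+E33. The number of arrays limits the precision.

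The miRNAs and lists were chosen with earlier results of these data known. Named miRNAs are the 5 with the smallest p in each direction, the 2 brightest in sham of each list, the 10 followed by the study, and those called in the other tests (59 in all). The following were added after their values were seen: miR-142-3p, miR-142-5p, miR-494, miR-541, miR-431, miR-188, miR-146a, miR-93, miR-92b, miR-383, miR-194, miR-335, miR-342-5p, miR-330*, miR-211, miR-449a, miR-1 and miR-122. Alternatives were normexp (offset 50), other scalings, other probe summaries, the authors' table, other filters, fewer arrays, no slide term, a replicate block, an intensity trend, the methods' t-test, leaving out each array, and, chosen after seeing the data, the slide row as a term, a fit without TBI replicate 1, and a crossed replicate block.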

Additional observations from a re-analysis of the deposited data

Results flagged for a closer look

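The difference between the comparisons of TBI+E33 with sham and of TBI with naive was 0.73 for miR-543* (SE 0.13, limma's adjusted p = 0.0352), the only miRNA past the threshold in the test of that difference. It was higher in TBI+E33 than in sham on 2 of 2 arrays, by 0.50, and TBI minus naive was -0.23. What sets the comparisons apart was not tested, since the control group, slide and compound differ together.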

How the results depend on the processing

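For TBI+E33 against sham the count of miRNAs past the adjusted threshold was 0 in the fit described. It was 2 with the percentile over all probes (miR-18a higher, miR-338* lower) and 3 with quantile normalization (these 2 and miR-99a* lower). It was 2 with no filter on dim probes, 12 on the slide's 8 arrays, 13 on the 4 arrays and 5 on all arrays but TBI replicate 1. The methods' t-test, at its fold and unadjusted p, gave 30, and 1 of these after Benjamini-Hochberg adjustment. Leaving out each sham and TBI+E33 array in turn gave 0 to 1, the 1 (miR-99b*, lower) without sham replicate 1. A replicate block on the 4 arrays, which takes equal numbers as pairs, gave 17 (13 higher, 4 lower), and on all 16 arrays 0. The deviations of equal numbers correlated at -0.159, and a crossed block gave 0. Against TBI+JM6 the count was 0, and 0 to 2 with each TBI+E33 or TBI+JM6 array left out, the 2 (miR-192 and miR-194) without TBI+JM6 replicate 2. For the difference from TBI against naive the count was 1, and 0 with normexp, the percentile over all probes, no scaling, the authors' table, the replicate block on all arrays, the intensity trend and the slide's row. It was 6 with signals summed over probes, 2 with no slide term, and 0 to 3 with each naive, TBI, sham or TBI+E33 array left out, the 3 (miR-335, miR-543* and miR-873) without TBI replicate 2.

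Of 1635 values of named miRNAs under alternatives, 1477 kept their direction and side of the threshold, 55 passed it, 14 fell short of it (all for miR-543* in the difference from TBI against naive) and 89 had the opposite sign, 31 of these with no scaling. A further 15 of the 89 came with the slide's row as a term, and the cause was not tested. With no scaling the differences from sham were -0.01 for miR-543* and miR-335, -0.02 for miR-20a, -0.03 for miR-146a and miR-342-5p, -0.04 for miR-92a and miR-194, -0.08 for miR-541, -0.09 for miR-133b, -0.12 for miR-192, -0.16 for miR-144, -0.18 for miR-34a, -0.20 for miR-19b, -0.25 for miR-758, -0.27 for miR-124, -0.28 for miR-150 and miR-127, -0.35 for miR-143, miR-128 and miR-379, -0.36 for miR-210, -0.37 for miR-126 and miR-434, -0.40 for miR-365, -0.41 for miR-93, -0.42 for miR-342-3p and miR-15b, -0.45 for miR-16, -0.46 for miR-24 and -0.47 for miR-222, and miR-330* stood at -0.06 from TBI+JM6.

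With the percentile over all probes miR-342-3p and miR-15b were at -0.00, miR-16 at -0.03, miR-24 at -0.04 and miR-222 at -0.05. With quantile normalization miR-29a, miR-29b and miR-125b-5p were at 0.00, miR-30c at 0.02, miR-222 at -0.01 and miR-210 at -0.02. With the authors' table miR-126 and miR-434 were at -0.01, miR-93 and miR-365 at -0.04, miR-342-3p and miR-15b at -0.05, miR-16 at -0.08, miR-24 at -0.09, miR-222 at -0.11 and miR-144 at -0.12. MiR-451 was at 0.00 with normexp, 0.02 with summed signals and 0.05 with the mean over probes, and miR-181c at 0.00 with the study's probe. With normexp the differences from TBI+JM6 were -0.04 for miR-192, -0.05 for miR-330* and -0.22 for miR-194. With the slide's row as a term miR-144 was at -0.82, miR-434 at -0.08, miR-758 at -0.07, miR-128 at -0.06, miR-210 at -0.01, miR-146b and let-7a at 0.02, miR-30c at 0.06, miR-25 and miR-181c at 0.07, miR-181b at 0.08, miR-125b-5p at 0.11, miR-219-5p at 0.19, miR-181a at 0.34 and miR-338 at 0.36. With each sham or TBI+E33 array left out, miR-451 ran from -0.59 to 0.55, miR-144 from -0.25 to 0.94, miR-222 from -0.13 to 0.20, miR-143 from -0.01 to 0.31, miR-342-3p from -0.01 to 0.18, miR-221 from -0.30 to 0.01, miR-181a from -0.14 to 0.03, miR-29a from -0.14 to 0.01, miR-181c and miR-146b from -0.10 to 0.00, and miR-125b-5p from -0.06 to 0.00. Signals near the floor, as for miR-18a, miR-338*, miR-188 and miR-466b, limit what these arrays can measure.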
